A study of Mus musculus with 9 samples.

Results

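Mammalian carboxylesterases are serine hydrolases that cut ester bonds in drugs, pyrethroids, retinyl esters and neutral lipids, and the liver is a major site of their expression. Most of them sit in the lumen of the endoplasmic reticulum (ER), held there by a short retrieval signal at the carboxyl end, while a few are secreted into plasma. In hepatocytes, members of the family release fatty acids and glycerides from stored triacylglycerol that can be packed into very low density lipoprotein (VLDL), and several are induced by xenobiotic-sensing nuclear receptors. The 10 genes described here, Ces1c, Ces1d, Ces1e, Ces1f, Ces1g, Ces2a, Ces2c, Ces2e, Ces3a and Ces3b, were chosen by symbol as the carboxylesterase genes of interest among 17442 genes in the table. All 10 were present and all 10 passed the filter for testing, set at a mean normalised count of 10. They were compared between livers of 5 male Msr1-/- mice and 4 male Wt mice, both labelled as C57BL/6 and as having non-alcoholic fatty liver disease. Both genotypes had eaten a diet high in fat and cholesterol for 16 weeks, so the values describe genotype on that diet, and mice on another diet were not analysed here. Msr1 is the gene of macrophage scavenger receptor 1, by which macrophages bind and internalise modified lipoproteins, and the labels say no more of the allele than Msr1-/-. The question put to the carboxylesterases is how their RNA differs in fatty liver when the receptor gene is disrupted.

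The 10 genes lie on chromosome 8 of mm10 in 2 clusters, which also hold the other genes of the family. The Ces1 genes run along the minus strand (Ces1c, 93099015 to 93131283; Ces1d, 93166068 to 93197838; Ces1e, 93201218 to 93229619; Ces1f, 93256236 to 93279747; Ces1g, 93302369 to 93337308). The Ces2 and Ces3 genes run along the plus strand (Ces2a, 104734003 to 104741634; Ces2c, 104847068 to 104854483; Ces2e, 104926260 to 104934672; Ces3a, 105048601 to 105058413; Ces3b, 105083753 to 105093929). Msr1 lies on the same chromosome, 53.4 Mb from the first cluster and 65.1 Mb from the second. The catalytic serine of these enzymes sits in a short conserved turn, and the coding bases around it show how the subfamilies differ. Each line below gives 51 coding bases from the GENCODE M21 transcript with the longest open reading frame, read 5′ to 3′, with the 5 codons centred on the serine codon in capitals.
Ces1d: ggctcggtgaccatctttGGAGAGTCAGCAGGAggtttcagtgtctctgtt
Ces1g: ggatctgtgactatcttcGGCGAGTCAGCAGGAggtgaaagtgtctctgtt
Ces1c: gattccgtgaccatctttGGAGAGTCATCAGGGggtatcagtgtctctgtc
Ces2e: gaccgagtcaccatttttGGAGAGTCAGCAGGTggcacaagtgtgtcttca
Ces2a: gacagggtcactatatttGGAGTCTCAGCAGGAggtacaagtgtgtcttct
Ces3a: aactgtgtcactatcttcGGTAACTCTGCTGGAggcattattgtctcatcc
Ces3b: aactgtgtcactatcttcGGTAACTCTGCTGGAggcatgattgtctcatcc
The capitals of Ces1e and Ces1f match those of Ces1d base for base, while Ces1g differs from Ces1d at 1 capital base, Ces1c at 2, Ces2e at 1, Ces2a at 2 and Ces3a and Ces3b at 5 each. Over whole coding frames, identity was 72.4 to 81.4% within Ces1, 82.4 to 83.6% within Ces2, 95.3% between Ces3a and Ces3b, and 54.6 to 59.2% between subfamilies. This closeness bears on how reads can be assigned. Of the windows of 100 bases along the transcripts, 0% of those of Ces1d, Ces1e, Ces1f, Ces1g and Ces2e occur in another gene, against 1.03% for Ces1c, 6.88% for Ces3a, 7.04% for Ces3b, 8.13% for Ces2a and 13.6% for Ces2c. At 50 bases the shares are 36.08% for Ces2c, 26.16% for Ces3b, 25.55% for Ces3a, 17.34% for Ces2a and 3.3% or less for the other 5 members apart from Ces1c, where 302 of 2323 windows are shared, so values of single genes with large shares are uncertain. The sum of Ces3a and Ces3b does not depend on how reads were split between them. It may lack reads that fit both genes, since how such reads were counted is not given. Ces2a and Ces2c share windows with genes outside the 10, such as Gm7208 and Ces2d-ps, so the sum of Ces2a and Ces2c does not settle the split.

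Depth was similar between livers, at 15006773 to 18238932 recovered reads each. Values below are normalised read counts, with means ± SD over n = 5 Msr1-/- and n = 4 Wt livers, 1 library per animal. Fold changes are those of Msr1-/- over Wt on the log2(value + 1) scale. Wt 3 stood apart, scoring -88.74 on a first principal component with 41% of the variance, against -8.30 to 27.6 for the other 8 livers. The values of the members, and the counts of genes called in each list, are therefore also given without it. Msr1 itself averaged 175 ± 23.0 in Msr1-/- and 278 ± 124.7 in Wt livers, a mean log2 difference of -0.58 (two-sided exact permutation p = 0.0476, the smallest possible being 0.0159). Without Wt 3 the difference was -0.31 (exact permutation p = 0.107). Reads of Msr1 remained in all 9 livers, so gene totals do not check the labels clearly, and directions rest on the genotype as labelled. The samples are bulk tissue, in which fewer cells of a type and less RNA per cell cannot be told apart.

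Across the family, Ces1d rose in Msr1-/- livers by limma with all 9 livers, and which members were called depended on the tool and on Wt 3. In limma with Benjamini-Hochberg adjustment over 12937 genes, 1 of the 10 members was called higher and 0 were called lower at an adjusted p under 0.05, where 0.665% and 0.703% of all tested genes were called. With DESeq2, Ces1d, Ces1e, Ces1g and Ces2e were higher and 0 members lower (background 2.38% and 3.62%). With edgeR, 0 were higher and 0 lower (0.572% and 0.858%). An unadjusted edgeR p under 0.05 was found for 5 members, but the share of all tested genes at that threshold was not counted, so this number has no background. In limma 6 members were higher at an unadjusted p under 0.05, against 7.3% of all tested genes, and 0 were lower, against 1035 of 12937. The gene lists below were read from the same fits, with the same shares over all tested genes. With array weights in limma, Ces1d, Ces1g and Ces2e were higher and 0 members lower (2.14% and 1.96%).

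Leaving out Wt 3 changed the calls. Without it, limma called Ces1d, Ces1g and Ces2e higher and 0 members lower (2.59% and 2.32% of all tested genes). EdgeR then called Ces1d and Ces2e higher and 0 lower (2.37% and 2.75%), and DESeq2 called Ces1d, Ces1e, Ces1g and Ces2e higher and Ces3b lower (4.2% and 4.06%). With all 9 livers, 9 of the 10 members had a positive log2 fold change, against 52.7% of all tested genes, and 6 of the 10 had one of 0.5 or more, against 6.26%. Without Wt 3 these counts were 7 of 10, against 50.5% of all tested genes, and 5 of 10, against 7.3%, with negative values for Ces1c, Ces3a and Ces3b. The median of the members was 0.63, against 0.017 over all tested genes, and 0.49 without Wt 3. The members were chosen with earlier results of these data known. Of the 5 tested family genes outside the 10, 3 had a positive and 2 a negative log2 fold change, with a median of 0.13, and of -0.11 without Wt 3. The genotypes did not overlap for Ces1d and Ces1g, both higher in Msr1-/- livers, as for 3.3% of all tested genes, and 0 members were lower in every Msr1-/- liver, as for 3.99%. Without Wt 3 they did not overlap for Ces1d, Ces1g and Ces2e, higher in Msr1-/- livers (7.46% of all tested genes), and for Ces3a and Ces3b, lower in Msr1-/- livers (6.71%).

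**Figure D1:**
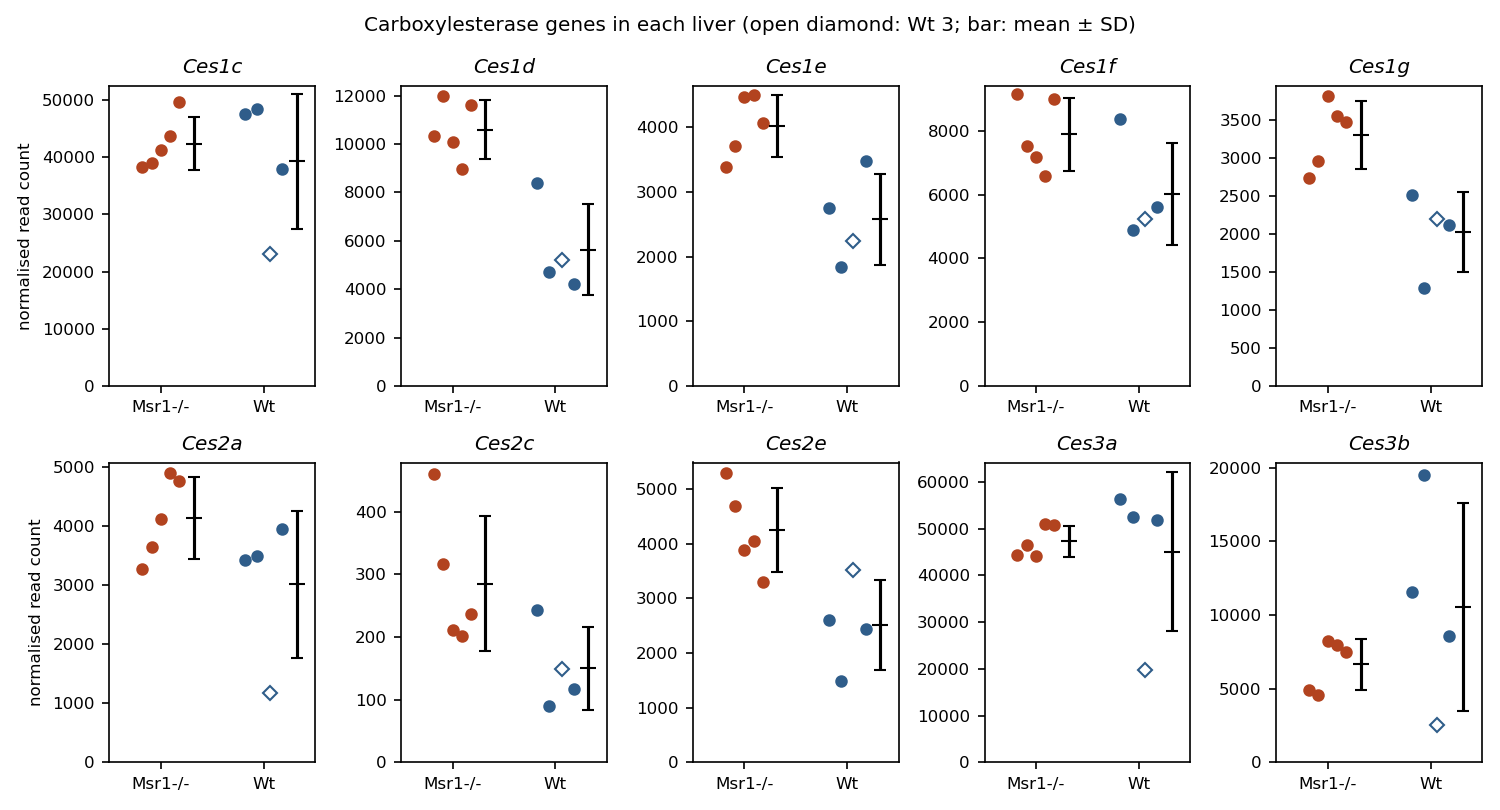
Normalised read counts of the 10 carboxylesterase genes (vertical axes, each from 0) in the 5 Msr1-/- livers and the 4 Wt livers, 1 point per liver, with the mean and SD as bars and Wt 3 as an open diamond. Every Msr1-/- liver lies above every Wt liver for Ces1d and Ces1g, while Wt 3 is the lowest liver for Ces1c, Ces2a, Ces3a and Ces3b.

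Ces1d, also called triacylglycerol hydrolase, mobilises stored triacylglycerol in the ER for VLDL assembly. It stood at 10329.6, 11986, 10089.7, 8977 and 11609 in Msr1-/- livers 1 to 5, and at 8379, 4716, 5199 and 4199 in Wt livers 1 to 4. The lowest Msr1-/- liver lay above the highest Wt liver, and Wt 1 was well above the other 3 Wt livers. The means were 10598 ± 1215 in Msr1-/- and 5623 ± 1882 in Wt livers, a log2 fold change of 0.96 (SE 0.19, 1.95-fold, limma adjusted p = 0.0410). Without Wt 3 the log2 fold change was 0.94 (limma adjusted p = 0.0232). The call also held without Wt 1 (limma adjusted p = 0.0113), and was lost when any of the 5 Msr1-/- livers, Wt 2 or Wt 4 was left out, with log2 fold changes of 0.84 to 1.02 and limma adjusted p of 0.0732 to 0.107 in those fits.

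Ces1g is a liver ester hydrolase whose loss in mice is known to alter hepatic and plasma lipids. Its levels were 2737, 2955, 3822, 3551 and 3478 in Msr1-/- livers 1 to 5, and 2515, 1284, 2193 and 2121 in Wt livers 1 to 4. The genotypes did not overlap, with Wt 2 the lowest of all 9 livers and Wt 1 closest to the Msr1-/- range. The means were 3309 ± 448 in Msr1-/- and 2028 ± 525 in Wt livers, a log2 fold change of 0.74 (SE 0.19, 1.67-fold, limma adjusted p = 0.0831). Leaving out Wt 3, which was not extreme for Ces1g, gave 0.79 (limma adjusted p = 0.0409).

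Ces1e, also called egasyn, binds beta-glucuronidase and keeps it in the ER. It was measured at 3390.2, 3703, 4460.0, 4502 and 4059 in Msr1-/- livers 1 to 5, and at 2754, 1835, 2246 and 3472 in Wt livers 1 to 4. The genotypes overlapped by 1 liver on each side, since Wt 4 was above Msr1-/- 1. Its log2 fold change was 0.67 (SE 0.18, 1.60-fold, limma adjusted p = 0.0893), and 0.62 without Wt 3 (limma adjusted p = 0.0776). It passed the threshold without Wt 4 (log2 fold change 0.83, limma adjusted p = 0.0428). Gusb, the gene of the beta-glucuronidase that egasyn retains, averaged 294 ± 43.5 in Msr1-/- and 297 ± 117.9 in Wt livers (log2 fold change 0.045, limma adjusted p = 0.959).

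Ces1f, which hydrolyses triacylglycerol in the ER, was not called in any of the fits with or without Wt 3. Levels were 9171, 7522, 7181, 6593 and 8999.7 in Msr1-/- livers 1 to 5, and 8377, 4878, 5242 and 5618 in Wt livers 1 to 4. Wt 1 lay inside the Msr1-/- range and the other 3 Wt livers lay below it. Limma gave a log2 fold change of 0.41 (SE 0.18, 1.33-fold, adjusted p = 0.290), and of 0.35 without Wt 3 (adjusted p = 0.279).

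Ces1c encodes the carboxylesterase that mice secrete into plasma, and it was the Ces1 member lowest in Wt 3. The last 30 coding bases before the stop codon are shown for Ces1c and Ces1d, with the 12 bases in capitals that cover the position of the ER retrieval signal.
Ces1c: acagaccctactgaacacACAGAACACAAA
Ces1d: aggccatcccacagggaaCATGTTGAGCTC
The reading frames of 9 of the 10 members end in codons for the same last pair of amino acids as Ces1d, and that of Ces1c does not. Ces1c stood at 38247, 38990.1, 41329, 43678 and 49667 in Msr1-/- livers 1 to 5, and at 47531, 48538, 23093 and 37997 in Wt livers 1 to 4. Wt 3 was far below the other 8 livers, and the remaining Wt livers lay around the Msr1-/- range. Its log2 fold change was 0.16 (SE 0.23, limma adjusted p = 0.821) with all livers and -0.074 (limma adjusted p = 0.821) without Wt 3. Summed per liver, all 5 Ces1 members came to 68206 ± 5543 in Msr1-/- and 55547 ± 13444 in Wt livers, a ratio of 1.23 that was 1.11 without Wt 3. The ranges overlapped, at 63876 to 77813 in Msr1-/- and 37973 to 69556 in Wt livers. Without the plasma enzyme gene, the 4 Ces1 members other than Ces1c came to 25823 ± 1617 in Msr1-/- and 16257 ± 4019 in Wt livers, a ratio of 1.59. Those sums ran between 23623 and 28146 in Msr1-/- and between 12713 and 22025 in Wt livers, with no overlap. Their ratio was 1.54 without Wt 3. This sum over chosen members was not among those planned and is given with no test. It holds Ces1d and Ces1g, whose genotypes did not overlap.

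Among the Ces2 genes, Ces2e, which hydrolyses pyrethroids, was called by limma without Wt 3 and not with it. Its levels were 5293, 4686, 3877, 4054 and 3299 in Msr1-/- livers 1 to 5, and 2599.6, 1496, 3515 and 2433 in Wt livers 1 to 4. Wt 3 was the highest Wt liver and exceeded Msr1-/- 5, and the other 3 Wt livers lay below all Msr1-/- livers. With all livers the log2 fold change was 0.80 (SE 0.22, 1.74-fold, limma adjusted p = 0.110). Without Wt 3, Ces2e rose by 0.98 on the log2 scale (1.98-fold, limma adjusted p = 0.0169).

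Ces2c, an acylcarnitine hydrolase, was the lowest member. It stood at 459.9, 316, 212, 202 and 236 in Msr1-/- livers 1 to 5, and at 243, 90.7, 149.8 and 117 in Wt livers 1 to 4. Wt 1 lay above 3 of the 5 Msr1-/- livers, the other 3 Wt livers lay below all of them, and Msr1-/- 1 was the highest of all. The log2 fold change of 0.95 (SE 0.31, 1.93-fold) was close to that of Ces1d with a larger SE (limma adjusted p = 0.162, and 0.110 without Wt 3). Reads from the windows it shares with the pseudogene Ces2d-ps cannot be told apart from reads of that gene.

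Ces2a, which hydrolyses di- and triacylglycerol, stood at 3269, 3645, 4124, 4888 and 4761 in Msr1-/- livers 1 to 5, and at 3418, 3497, 1175 and 3952 in Wt livers 1 to 4. Wt 3 was far below all other livers, and the other 3 Wt livers fell inside the Msr1-/- range. For Ces2a the log2 fold change was 0.58 (SE 0.31, limma adjusted p = 0.427), and 0.18 (limma adjusted p = 0.513) without Wt 3. The 3 Ces2 members together came to 8664.5 ± 418 in Msr1-/- and 5671.5 ± 831 in Wt livers, a ratio of 1.53 that was 1.46 without Wt 3. The sums did not overlap, at 8213 to 9144 in Msr1-/- and 4839.5 to 6502 in Wt livers, and are given with no test. With all livers, the genotypes overlapped for each of the 3 members alone. Wt 3 was the lowest liver for Ces2a and the highest Wt liver for Ces2e, so its deviations in these genes offset each other in the sum.

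Ces3a and Ces3b encode liver esterases of the ER lumen, and both had negative log2 fold changes once Wt 3 was left out, neither of them past the limma threshold. Ces3a stood at 44306, 46452, 44213, 50892 and 50673 in Msr1-/- livers 1 to 5, and at 56276, 52369.8, 19746 and 51740.0 in Wt livers 1 to 4. Apart from Wt 3, the Wt livers were above every Msr1-/- liver. Its log2 fold change was 0.18 (SE 0.29, limma adjusted p = 0.848) with all livers and -0.18 (limma adjusted p = 0.487) without Wt 3.

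Ces3b was the member with a negative log2 fold change with all 9 livers. Its levels were 4900.4, 4608, 8239, 8001 and 7509 in Msr1-/- livers 1 to 5, and 11583, 19504, 2541 and 8584 in Wt livers 1 to 4. Wt 3 was the lowest and Wt 2 the highest of the 9 livers, and the Wt livers other than Wt 3 were above every Msr1-/- liver. The log2 fold change of Ces3b was -0.38 with all livers (SE 0.48, limma adjusted p = 0.796), 0.029 without Wt 2 (limma adjusted p = 0.985) and -0.95 without Wt 3 (1.93-fold lower, limma adjusted p = 0.0668). DESeq2 without Wt 3 called it lower (adjusted p = 0.00513), where 4.06% of all genes tested were called lower. Summed, Ces3a and Ces3b came to 53959 ± 4343 in Msr1-/- and 55586 ± 22709 in Wt livers, a ratio of 0.971 with all livers and 0.809 without Wt 3. The sums were 49206 to 58892 in Msr1-/- livers, and 67859, 71874, 22287 and 60324 in Wt livers 1 to 4. Apart from Wt 3, the Wt sums were above every Msr1-/- sum, and no test was made on them.

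**Figure D2:**
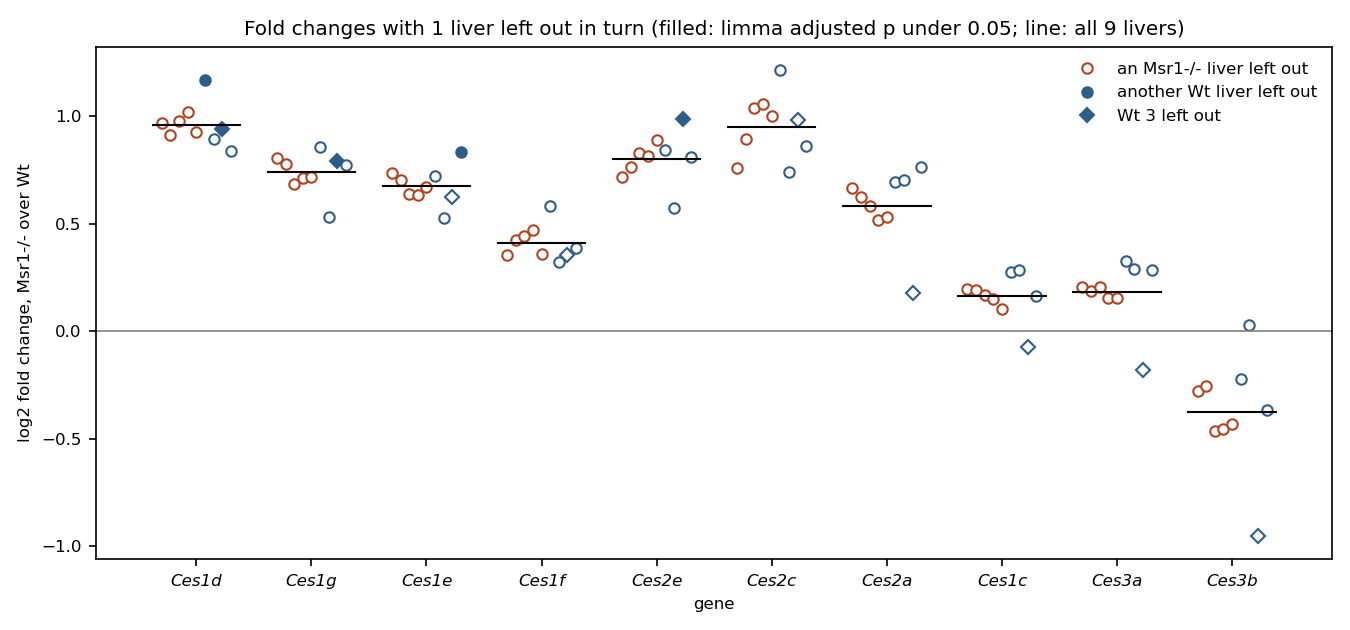
Log2 fold change of each gene, Msr1-/- over Wt (vertical axis), in 9 limma fits that each leave out 1 liver, coloured by the genotype of the liver left out, with diamonds for Wt 3, filled symbols for an adjusted p under 0.05 and lines for all 9 livers. Ces1d stays between 0.84 and 1.17 and is filled in 2 of 9 fits, while Ces1c and Ces3a cross 0 without Wt 3 and Ces3b crosses it without Wt 2.

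The livers in which a gene was lowest divided the members. Ces1c, Ces2a, Ces3a and Ces3b were lowest in Wt 3, Ces1e, Ces1f, Ces1g, Ces2c and Ces2e in Wt 2, and Ces1d in Wt 4. Wt 3 also had low pericentral hepatocyte markers, with a summed level of 52940 over 12 genes, against 173400 to 209400 in Msr1-/- livers and up to 194600 in Wt livers. The periportal sum was lowest in Wt 3 as well, at 71090, against 77300 to 116900 in Msr1-/- livers and up to 98510 in Wt livers. So was the hepatocyte sum, at 1691000, against 2008000 to 2832000 in Msr1-/- livers and up to 2489000 in Wt livers. The pericentral cytochrome gene Cyp1a2 stood at 9553, 12159, 11778, 13403 and 19092 in Msr1-/- livers 1 to 5, and at 17691, 21394, 1988 and 17435 in Wt livers 1 to 4, also lowest in Wt 3. The part of these markers in the low values of Ces1c, Ces2a, Ces3a and Ces3b was not tested. As a share of all recovered reads, the 10 members took 0.711 to 0.835% in Msr1-/- livers and 0.489 to 0.812% in Wt livers, the lowest being Wt 3. Their sum was 130830 ± 9000.6 in Msr1-/- and 116800 ± 35895 in Wt livers, a ratio of 1.12 that was 0.976 without Wt 3. Of the level summed per kilobase of transcript, Ces1c and Ces3a together made up the most, with 35.3% and 35.2% in Msr1-/- livers and 36.8% and 37.6% in Wt livers.

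**Figure D3:**
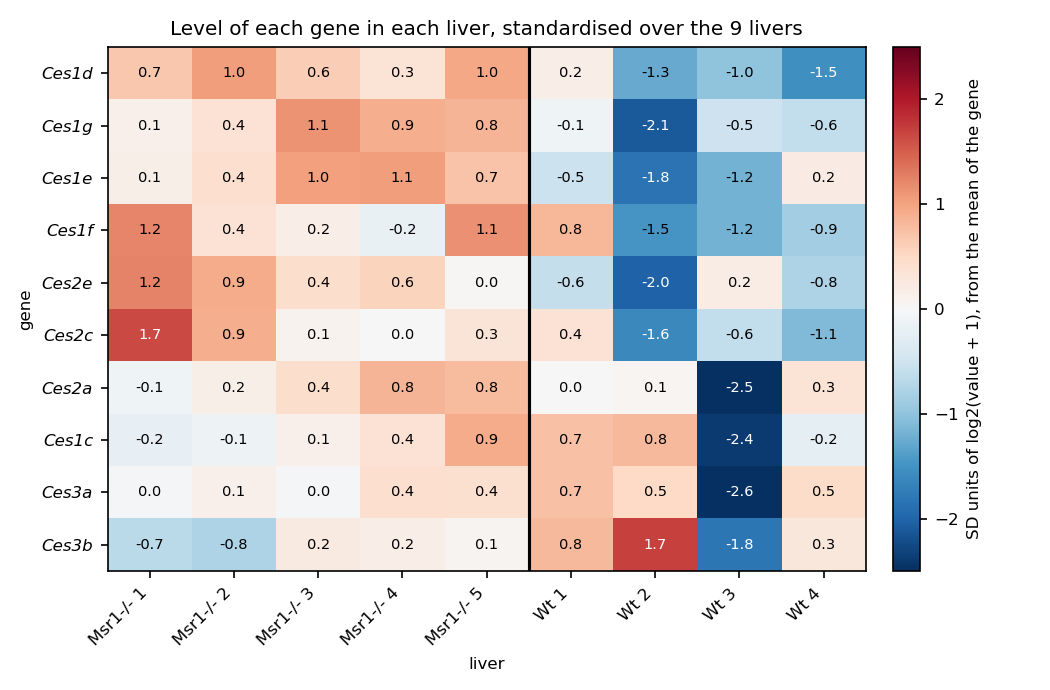
Level of each carboxylesterase gene (rows) in each liver (columns, Msr1-/- livers left of Wt livers), as log2(value + 1) minus the mean of the gene over the 9 livers, in SD units, with red above and blue below the mean. The upper 6 rows are low in Wt 2 and the lower 4 rows are low in Wt 3, where Ces3a reaches -2.6 SD.

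Per kilobase of transcript, the members fell into 3 tiers that did not overlap in either genotype. On this scale of normalised counts per kilobase, Ces1c had 23190 ± 2514 in Msr1-/- and 21490 ± 6453 in Wt livers, and Ces3a had 23120 ± 1612 in Msr1-/- and 22010 ± 8298 in Wt livers. Their ranges overlapped, so neither can be placed above the other. The middle tier held Ces1d, Ces1e, Ces1f, Ces1g, Ces2a, Ces2e and Ces3b. Ces1d was the third highest of the 10 in Msr1-/- livers at 5289 ± 606.4 and the fifth in Wt livers at 2806 ± 939.2, and Ces3b was the fifth in Msr1-/- livers at 2768 ± 730.2 and the third in Wt livers at 4392 ± 2935. Within this tier the ranges of neighbours in the order overlapped in Msr1-/- livers. In Wt livers they overlapped as well, except for Ces1d (2095 to 4181) and the next gene, Ces2a (599.6 to 2016). Ces2c was lowest, at 144.8 ± 54.5 in Msr1-/- and 76.1 ± 33.7 in Wt livers.

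The table held 7 further genes of the family, of which 5 were tested, and limma called 0 of them, with 1 higher and 1 lower at an unadjusted p under 0.05. DESeq2 called Ces2g higher and Ces2b lower, edgeR called 0, and limma without Wt 3 called Ces2b lower. Ces2g was the third family gene whose genotypes did not overlap, at 819, 812, 766, 801 and 730.4 in Msr1-/- livers 1 to 5, and 679, 579, 537 and 619 in Wt livers 1 to 4. Its log2 fold change was 0.38 (SE 0.10, limma adjusted p = 0.0893). Ces2b had a negative log2 fold change between genes with positive ones, at 40.3, 11.7, 6.39, 15.2 and 5.01 in Msr1-/- livers 1 to 5, and 95.2, 108, 14.9 and 47.4 in Wt livers 1 to 4. Wt 3 lay inside the Msr1-/- range and the other 3 Wt livers above it, with a log2 fold change of -2.03 (SE 0.66, limma adjusted p = 0.164) and of -2.61 without Wt 3 (limma adjusted p = 0.0204). Ces1b averaged 1904 ± 301 in Msr1-/- and 1791 ± 534 in Wt livers (limma adjusted p = 0.855). Ces2h averaged 14.3 ± 5.36 in Msr1-/- and 11.5 ± 4.37 in Wt livers (limma adjusted p = 0.792), and Ces4a 62.6 ± 28.0 in Msr1-/- and 93.4 ± 61.6 in Wt livers (limma adjusted p = 0.910). Ces1a and Ces2d-ps lay below the filter and have no test. Ces1h, Ces2f and Ces5a were not analysed here.

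**Figure D4:**
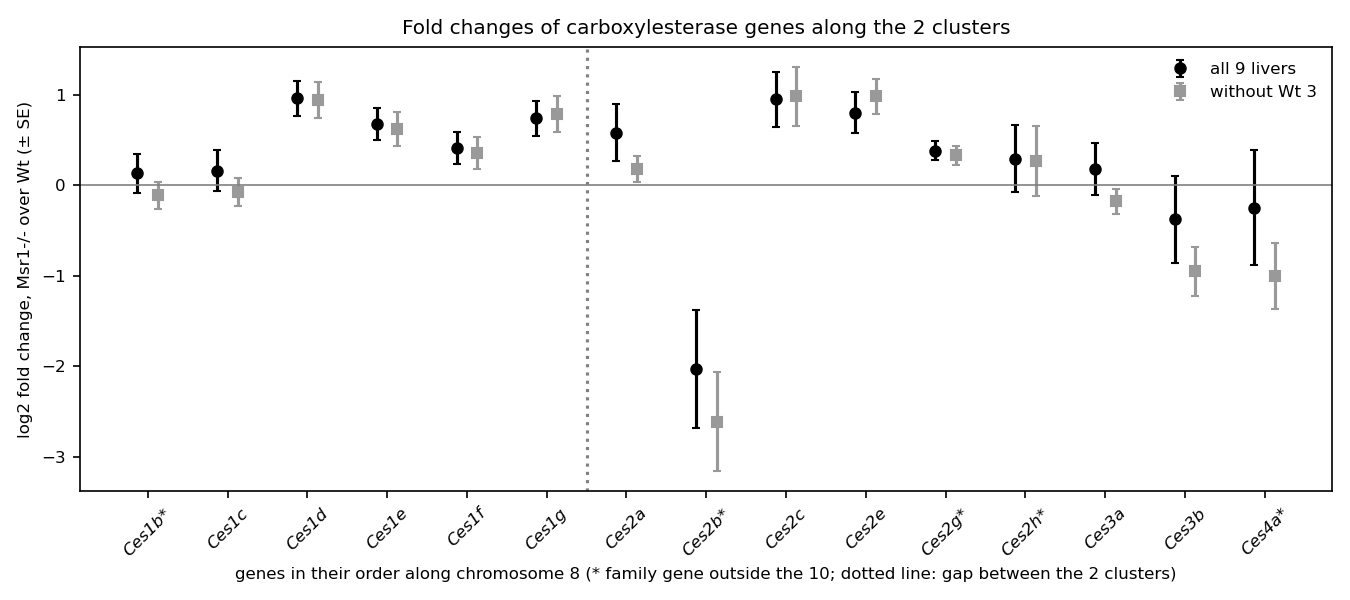
Log2 fold change of Msr1-/- over Wt with its SE (vertical axis) for the 15 tested genes of the family in their order along chromosome 8, with all 9 livers as black circles and without Wt 3 as grey squares. Ces1d to Ces1g are positive in both fits, Ces2b is at -2.03 and -2.61 between Ces2a and Ces2c, and Ces1b, Ces1c and Ces3a change sign between the fits.

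Genes next to the family were read from the same fit. Within 1 Mb of the Ces1 cluster, which spans 515.6 kb, 0 of 14 tested neighbours were called by limma and 0 by edgeR, with 5 at an unadjusted p under 0.05 and 3 called by DESeq2. Around the second cluster, which spans 416.1 kb, 0 of 41 neighbours were called by limma, edgeR or DESeq2, with 3 at an unadjusted p under 0.05. Over all 12937 tested genes, 945 were higher and 1035 lower at an unadjusted limma p under 0.05, and DESeq2 called 2.38% higher and 3.62% lower. The neighbours of the first and second cluster had median log2 fold changes of -0.022 and 0.032. Single neighbours ran from -1.338 to 0.878 and from -0.551 to 0.742.

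The RefSeq promoter table (GRCm38.p6) held a window of 250 bases before to 50 bases after the start for 7 of the 10 members, Ces1c, Ces1e, Ces1g, Ces2a, Ces2c, Ces2e and Ces3b. The stretches before the start are shown for Ces1g and Ces2e, which passed the threshold without Wt 3, and for Ces3b, whose fold change had the opposite sign. Capitals mark matches to the motifs listed after them, on either strand. The stretches are chr8:93337309-93337459 (minus strand), chr8:104926010-104926259 (plus strand) and chr8:105083505-105083752 (plus strand).
Ces1g: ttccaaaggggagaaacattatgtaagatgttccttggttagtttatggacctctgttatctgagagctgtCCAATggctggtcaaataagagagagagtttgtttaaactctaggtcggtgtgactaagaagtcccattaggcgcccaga
Ces2e: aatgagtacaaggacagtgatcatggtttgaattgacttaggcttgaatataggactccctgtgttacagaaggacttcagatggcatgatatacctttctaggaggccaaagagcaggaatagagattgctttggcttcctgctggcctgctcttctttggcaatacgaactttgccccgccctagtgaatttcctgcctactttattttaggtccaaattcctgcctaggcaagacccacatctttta
Ces3b: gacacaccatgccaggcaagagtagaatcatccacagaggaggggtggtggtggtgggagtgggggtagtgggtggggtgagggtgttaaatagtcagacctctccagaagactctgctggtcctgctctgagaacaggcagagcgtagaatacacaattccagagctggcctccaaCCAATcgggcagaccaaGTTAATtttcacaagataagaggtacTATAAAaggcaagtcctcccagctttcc
In the whole windows, the CCAAT box (CCAAT) was found in 5 of the 7 members and in 37.4% of 32851 promoters, the TATA box (TATAAA) in 2 and in 13.6% (in Ces1g outside the stretch shown), and the forkhead motif (TGTTTNC) in 2 and in 20.5%. The nuclear receptor half-site (AGGTCA) was found in 1, Ces2a, and in 16.3% of all promoters, and the HNF1 half-site (GTTAAT) in 1, Ces3b, and in 7.1%. The HNF4 core (CAAAGTCCA), the C/EBP motif (TTGCGCAA) and the core of the antioxidant response element (TGACNNNGC) were found in 0 of the 7, and in 0.5%, 0.2% and 12.4% of all promoters. These matches describe the letters in the windows and nothing further.

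Several carboxylesterase genes are known to respond to the xenobiotic receptors CAR (Nr1i3) and PXR (Nr1i2) in rodents, so target genes of these receptors were read from the same fit. Of 20 tested targets, 5 rose and 0 fell in limma, with a median log2 fold change of 1.09 against 0.017 over all tested genes. Without Wt 3 limma called 8 higher and 0 lower, with a median of 0.89, and with all livers DESeq2 called 7 and edgeR 4 higher. Cyp2b9, a steroid and drug oxidising cytochrome, averaged 142 ± 71.2 in Msr1-/- and 3.62 ± 1.96 in Wt livers (limma adjusted p = 0.00383). Cyp2c29 averaged 23876 ± 4278 in Msr1-/- and 4760.0 ± 3171 in Wt livers, and Ugt1a1, which conjugates bilirubin, 738 ± 223 in Msr1-/- and 268 ± 97.4 in Wt livers (limma adjusted p = 0.0204 and 0.0347). The remaining called targets, the transporter gene Abcc3 and the retinal dehydrogenase gene Aldh1a1, had log2 fold changes of 1.16 and 0.89 (limma adjusted p = 0.0498 and 0.0433). With each liver left out in turn, Cyp2b9 was called in 9 of 9 fits. The call was lost for Cyp2c29 without Msr1-/- 1, 2 or 4 or Wt 2, and for Ugt1a1 without Msr1-/- 1, 2, 3 or 5 or Wt 2 or 4. That of Abcc3 held without Wt 3 and in no other fit, and that of Aldh1a1 held without Wt 1 or Wt 3 and in no other fit. Of 15 tested receptors and factors reported to act on carboxylesterase genes, 0 were called by limma and 0 by edgeR, with 4 higher at an unadjusted p under 0.05. DESeq2 called 2 higher, Ppara and Nr1i2 (DESeq2 adjusted p = 0.030 and 0.033), and did not call Nr1i3 (DESeq2 adjusted p = 0.204). Nr1i2 averaged 1402 ± 158 in Msr1-/- and 1072 ± 84.2 in Wt livers (log2 fold change 0.38, limma adjusted p = 0.129). Nr1i3 stood at 1302, 1573, 1930.5, 1230.2 and 1634 in Msr1-/- livers 1 to 5, and at 827, 888, 79.2 and 694 in Wt livers 1 to 4. Its genotypes did not overlap, and Wt 3 was far below the rest (log2 fold change 1.75, limma adjusted p = 0.189). Without Wt 3 limma called 3 of the 15 higher, namely Nr1i3 (log2 fold change 0.92, adjusted p = 0.00851), Ppara (0.71, adjusted p = 0.0375) and Nfe2l2 (0.54, adjusted p = 0.0385). Of 15 tested targets of the oxidative stress factor NRF2, 0 were called by limma, edgeR or DESeq2, with 3 higher and 1 lower at an unadjusted p under 0.05 and a median log2 fold change of 0.28. Without Wt 3 limma called 5 of the 15 higher, with a median of 0.72. These were the glutathione transferase genes Gsta1 (log2 fold change 4.08), Gsta2 (1.88), Gsta4 (0.87) and Gstm1 (1.00) and the malic enzyme gene Me1 (1.33), with limma adjusted p of 0.00393 to 0.0360. Any part of CAR, PXR or NRF2 in the levels of the carboxylesterases was not tested.

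Other genes of lipid hydrolysis and export were read beside Ces1d. Among 24 tested neutral lipid and ester hydrolases and their regulators, 2 rose and 1 fell in limma, with a median log2 fold change of 0.21. DESeq2 called 2 higher and 2 lower, edgeR 2 and 1, and limma without Wt 3 called 4 higher and 1 lower, adding the lipase genes Mgll (log2 fold change 0.81) and Lipa (0.77). G0s2, an inhibitor of adipose triglyceride lipase, rose to 3780.4 ± 1415 in Msr1-/- livers, against 1469.6 ± 323 in Wt livers (limma adjusted p = 0.0281). Abhd6, a monoacylglycerol hydrolase, rose to 1089 ± 213 in Msr1-/- livers, against 636 ± 31.4 in Wt livers (limma adjusted p = 0.0316). Lpl, lipoprotein lipase, fell to 307 ± 53.0 in Msr1-/- livers, against 1687 ± 1591 in Wt livers with 4057 in Wt 3 (log2 fold change -2.08, limma adjusted p = 0.0410, and -1.53 without Wt 3 with adjusted p = 0.00171). With each liver left out in turn, the call of G0s2 was lost without Msr1-/- 1, 3 or 4 or Wt 1 or 2. Abhd6 was called without Msr1-/- 5 or Wt 3, and Lpl without Wt 2 or Wt 3, and in no other such fit. Among 16 tested genes of VLDL assembly and secretion, Mia2, needed for the export of large cargo from the ER, rose to 4117 ± 417 in Msr1-/- livers, against 2726 ± 74.7 in Wt livers (limma adjusted p = 0.0276, lost without Msr1-/- 1, 2, 3 or 5 or Wt 1 or 2). No other gene of that list was called by limma or edgeR with all livers, its median log2 fold change was 0.41, and 7 of the 16 were higher at an unadjusted p under 0.05. DESeq2 also called P4hb and Apoe higher (adjusted p = 0.000654 and 0.00597). Limma without Wt 3 called Mia2, Cideb (log2 fold change 1.00) and the lipid droplet gene Plin2 (1.15) higher, with adjusted p of 0.0116, 0.00427 and 0.0499. Of 10 tested genes for ER retrieval and lumenal partners, 0 were called by limma and 0 by edgeR, with 3 higher at an unadjusted p under 0.05 and 3 called higher by DESeq2. Without Wt 3, limma called 1 higher, Pdia4, a disulfide isomerase of the ER lumen (log2 fold change 0.67, limma adjusted p = 0.0275).

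Markers of liver cell types were read from the same table. The hepatocyte list, which checks the labelled tissue, summed to 2008000 to 2832000 in Msr1-/- livers and 1691000 to 2489000 in Wt livers. Wt 3 had the lowest sum. Of 13 hepatocyte markers 0 were called by limma, edgeR or DESeq2, with 1 higher at an unadjusted p under 0.05 and a median log2 fold change of 0.14. Of 12 pericentral markers 0 were called by limma, edgeR or DESeq2, with 4 higher at an unadjusted p under 0.05, and of 12 periportal markers Cdh1 was lower (log2 fold change -1.43, limma adjusted p = 0.0410). Of 15 Kupffer cell and macrophage markers, C1qa was called lower (log2 fold change -0.92, limma adjusted p = 0.0355). At an unadjusted limma p under 0.05, 14 were lower, against 1035 of all 12937 tested genes. These 15 markers had a median of -0.89. DESeq2 called 10 of them lower, edgeR 1, and limma without Wt 3 called 6 lower, with a median of -0.69. Their summed level was 5958 to 8016 in Msr1-/- livers and 10260 to 23960 in Wt livers, the highest being Wt 3. Of 11 stellate cell markers 0 were called by any of the 3 tools, with 2 lower at an unadjusted p under 0.05, and their sum was 4320 to 5178 in Msr1-/- and 4681 to 13170 in Wt livers, again highest in Wt 3. Of 8 sinusoidal endothelial markers 0 were called by the 3 tools and 0 had an unadjusted p under 0.05. Of 3 tested cholangiocyte markers Sox9 was lower (log2 fold change -1.45, limma adjusted p = 0.0103), and of 4 tested adipocyte markers Cfd was higher (log2 fold change 3.30, limma adjusted p = 0.0436). The sums were 253.5 to 549.6 in Msr1-/- and 619.3 to 1696 in Wt livers for the cholangiocyte list and 355 to 826 in Msr1-/- and 214 to 1429 in Wt livers for the adipocyte list. With each liver left out in turn, Sox9 was called in 9 of 9 fits, Cdh1 without Wt 3, C1qa without Wt 3 or Wt 4, and Cfd without Msr1-/- 5, Wt 3 or Wt 4, and these last 3 genes in no other fit. Without Wt 3, limma called 0 hepatocyte, pericentral, stellate and endothelial markers and the same single genes of the periportal, cholangiocyte and adipocyte lists. DESeq2 with all livers called 2 cholangiocyte markers lower, Sox9 and Spp1, and edgeR called 0 adipocyte markers. In each cell type list 0 markers of those in the table were at 0 in all livers. The part of these cell types in the levels of Ces1d and the other members was not tested.

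Outside the family, the genes most like the carboxylesterases over the 9 livers, by Pearson correlation with the mean standardised log2 level of the 10 members, were Shmt1 (0.984), Sult1b1 (0.972), Aqp9 (0.968), C1rl (0.965) and Dgcr2 (0.964). The mean standardised level of the members was 0.34 to 0.62 in Msr1-/- livers, and 0.24, -0.72, -1.36 and -0.38 in Wt livers 1 to 4. Wt 3 and Wt 2 were thus the lowest livers of this mean, and all points share the same 9 libraries.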

How the data were processed

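Liver RNA of 9 animals was sequenced. The library kit was TruSeq RNA v2, and the labels' protocols give no strand setting. The submitters' processing notes name STAR, HTSeq, DESeq2 and mm10. The single table that the authors deposited holds a signal for 17442 genes in each liver, which is the read count over a size factor. Whole reads were recovered by dividing each column by its smallest value above 0 (100% of values whole within 0.01 reads), and depths cover counting error only.

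The members, gene lists and tests were chosen with earlier results of these data known. The 12937 genes whose mean reached 10 were tested on log2(value + 1) with limma 3.58.1 (trend, empirical Bayes, genotype as the only term) in R 4.3.3, with Benjamini-Hochberg adjustment over all of them and a threshold of 0.05. A fold change on this scale understates the change of low genes. The script was tested on simulated data. Msr1 was tested by an exact permutation test. Tried as alternatives were pseudocounts of 0.5 and 5, filters at 0 and at a mean of 50, quantile and TMM scaling, array weights, edgeR 4.0.16 and DESeq2 1.42.0 on recovered reads, a block for the animal number, edgeR without Wt 3, and leaving out each liver. DESeq2 without Wt 3 was added after seeing the data.

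The text names all members and family genes in the table, Msr1, up to 3 genes of smallest p per pathway list, up to 2 of highest level per cell type list, and the 5 genes most like the members. Gusb, Abcc3, Aldh1a1, Nfe2l2, Gsta1, Gsta2, Gsta4, Me1, Mgll, Lipa, Apoe, Plin2, Cdh1, C1qa and Cfd were named after their values were seen. Per-kilobase levels use the length of the GENCODE M21 transcript with the longest open reading frame, and coordinates are from GENCODE M21 (GRCm38, the assembly of mm10). Libraries were checked for duplicates, and every pair differed by a chi-square of 19.7 or more per degree of freedom.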

Additional observations from a re-analysis of the deposited data

Results flagged for a closer look

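In 120 groups of 4 or 5 values checked, 9 had 1 liver far from the others of its genotype, 7 of them Wt 3, and chance flags about 1 in 20 groups. Ces3a was 19746 in Wt 3, against 51740.0 to 56276 in the other 3 Wt livers. Ces1a, which was too low to be tested, was 13.3 in Wt 3, against 4.22 to 4.74 in the other Wt livers. Ces2b was 40.3 in Msr1-/- 1, against 5.01 to 15.2 in the other 4 Msr1-/- livers. The sum of the 5 Ces1 members was 77813 in Msr1-/- 5, against 63876 to 67301 in the other Msr1-/- livers. Among genes read beside the family, Wt 3 was far above the other Wt livers for Lpl (4057, against 683 to 1140), G6pdx (175.7, against 74.0 to 86.5), Dcn (5352, against 2377 to 2511), Col3a1 (2916, against 389.2 to 620.4) and Spp1 (1505, against 550.7 to 600.5).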

How the results depend on the processing

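Of all tested genes, 86 were higher and 91 lower in Msr1-/- livers in limma with all livers. DESeq2 gave 307 and 466, array weights 277 and 254, edgeR without Wt 3 304 and 352, DESeq2 without Wt 3 539 and 520, and leaving out each liver in turn 19 to 332 higher and 17 to 297 lower. A mean of 50 or more gave 58 lower. With the animal number as a replicate block 8 genes were higher, 0 lower and 0 members called. The numbers were not shown to pair the animals, since deviations of same-numbered animals correlated at 0.025, -0.077, -0.1 and 0.22. Of the members, 1 was called higher, with 0 under quantile scaling and edgeR, 4 under DESeq2 with or without Wt 3, 3 under array weights, 2 under edgeR without Wt 3, and 0 to 3 with each liver left out. DESeq2 without Wt 3, chosen after seeing the data, called 1 lower. Ces1d was called in 9 of 12 alternatives other than leaving out each liver, with adjusted p of 0.000846 to 0.154, and the log2 difference of Msr1 was -0.72 to -0.31 with each liver left out. The direction of 8 genes turned under some settings, all with no call there, and the cause was not tested. Without Wt 3, edgeR and DESeq2 gave log2 fold changes of -0.086 and -0.080 for Ces1c, -0.19 and -0.18 for Ces3a, -0.11 and -0.10 for Ces1b, -0.52 each for Cyp1a2, and -0.17 and -0.16 for Arg1. With all livers, array weights gave -0.077 for Ces3a, -0.31 for Cyp1a2 and -0.036 for Arg1, quantile scaling -0.087 for Arg1, and edgeR and DESeq2 -0.15 each for Cyp1a2 and -0.56 and -0.55 for Fabp4. With each liver left out in limma, the range was -0.074 to 0.28 for Ces1c, -0.18 to 0.33 for Ces3a, -0.95 to 0.029 for Ces3b, -0.11 to 0.26 for Ces1b, -1.004 to 0.11 for Ces4a, -0.55 to 0.60 for Cyp1a2, -0.15 to 0.25 for Arg1 and -0.37 to 0.85 for Fabp4.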
